A study of Mus musculus with 6 samples.

Results

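Lymphotoxin beta (Ltb) and 8 genes of the signalling route around it were followed in Flk1-positive cells in which the transcription factor Etv2 had been induced. The members are every probe set whose platform annotation symbol is exactly Ltb, Lta, Tnf, Ltbr, Tnfrsf1a, Tnfrsf1b, Map3k14, Nfkb2 or Relb. They came to 12 probe sets of 9 genes, of 45101 probe sets on the arrays and 18193 genes with a symbol of their own. Ltb was selected on its measured difference, being higher in every induced array, so that difference between the groups is described here without a test. The other genes were taken for their place in the pathway, with earlier results of these data known.

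RNA from 6 samples was hybridised to Affymetrix mouse arrays, 1 array a sample. All samples came from the ES cell line ER71 A17C, of 129P2/Ola background, which carries a doxycycline-inducible Etv2 cassette (ER71 A2Lox.cre) in treated and untreated cells alike. The 3 induced samples were given doxycycline at 0.5 microg/ml for 12 hours, starting at day 3 of embryoid body differentiation, and the 3 control samples were untreated according to the series' design text. Flk1-positive cells, which carry the VEGF receptor encoded by Kdr, were sorted from both at day 3.5 in a mesoderm-inducing culture. The treatment field of the labels gives the doxycycline text for all 6 samples, so the groups rest on the titles. A line given doxycycline without the cassette was not analysed here, so an effect of the drug and one of Etv2 cannot be told apart. The labels do not tell whether replicates are separate cultures, so p-values measure only the spread of these 6 samples, part of which may be technical.

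Lymphotoxin beta is a membrane protein of the tumour necrosis factor (TNF) family that forms heterotrimers with lymphotoxin alpha (Lta) and signals through the lymphotoxin beta receptor (Ltbr). That receptor releases the kinase NIK (Map3k14) from degradation, and NIK then drives the processing of the p100 protein of Nfkb2 to p52, which works as a dimer with RelB. The route is best known for organising lymph nodes and spleen, where lymphocytes and lymphoid tissue inducer cells carry the ligand and stromal and endothelial cells carry the receptor.

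Ltb, Tnf and Lta are neighbours in the mouse MHC class III region on chromosome 17, where the start site of Ltb lies 7500 bases from that of Tnf and 10844 bases from that of Lta. The 250 bases before each start are shown for Ltb and its neighbours Tnf and Lta. Ltb was picked for its rise in every induced array, and that choice favours a contrast with Tnf and Lta. Whether the windows have a part in that contrast was not tested. The sequences are those of RefSeq on GRCm38.p6, read 5′ to 3′ along each gene's strand. Capitals mark CAGGAA or the related motif CCGGAA, each holding the core GGAA of ETS-family sites, on either strand, and the κB consensus of NF-κB.
Ltb, chr17:35194257-35194506, plus strand: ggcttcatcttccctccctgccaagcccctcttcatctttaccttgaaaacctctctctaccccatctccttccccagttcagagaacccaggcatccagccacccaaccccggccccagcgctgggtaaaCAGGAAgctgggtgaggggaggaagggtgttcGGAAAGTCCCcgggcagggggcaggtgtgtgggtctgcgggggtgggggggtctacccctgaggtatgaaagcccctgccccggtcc
Tnf, chr17:35202008-35202257, minus strand: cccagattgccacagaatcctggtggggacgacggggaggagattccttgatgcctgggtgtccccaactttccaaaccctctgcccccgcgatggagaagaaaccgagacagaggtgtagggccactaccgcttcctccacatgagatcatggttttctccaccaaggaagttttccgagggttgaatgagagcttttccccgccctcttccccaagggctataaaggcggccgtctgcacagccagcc
Lta, chr17:35205352-35205601, minus strand: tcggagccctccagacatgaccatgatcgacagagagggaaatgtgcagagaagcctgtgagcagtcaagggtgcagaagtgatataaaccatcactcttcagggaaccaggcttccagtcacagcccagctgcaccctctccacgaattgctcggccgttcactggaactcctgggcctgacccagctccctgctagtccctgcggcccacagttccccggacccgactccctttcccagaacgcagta
The Ltb window held 1 CAGGAA, at -119 to -114 from the start site, and 1 match to the κB consensus, at -87 to -78. The windows of Tnf and Lta held neither of these nor CCGGAA. The bare GGAA core occurred 5 times in the Ltb window on both strands together, 7 times in that of Tnf and 6 times in that of Lta. One of the 5 in the Ltb window lies inside the CAGGAA and another inside the κB match.

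Among all 32851 windows of that length, 93.4% held GGAA on either strand, 25.7% CAGGAA, 12.0% CCGGAA and 3.90% a κB match. Windows were found for 8 of the 9 members, all but Relb. CCGGAA occurred once each in the windows of Ltbr, Tnfrsf1a, Tnfrsf1b and Map3k14. Of the 3 windows of Nfkb2, which has several start sites, each held a κB match, and 1 held CAGGAA. These matches describe the letters of the windows and were not set against binding data.

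Before the members, the induced gene and the sort were checked. Etv2 stood at 13.27, 13.28 and 13.36 in induced 1, 2 and 3, against 9.92, 8.59 and 10.71 in control 1, 2 and 3, all as log2 RMA levels. The groups did not overlap, in the direction of the labels, and the difference was 3.56 ± 0.46 on the log2 scale (SE, n = 3 each), with limma's unadjusted p at 7.58e-05 and adjusted p at 0.9998 over all probe sets (0.0777 without control 2, and 0.0777 to 1 over the alternatives). Kdr, the gene behind the sort, stood at 9.56, 9.36 and 10.52 in the induced samples and 10.02, 8.40 and 10.97 in the controls. The mean over mesoderm marker probe sets was 10.02 to 10.44 in the induced samples and 10.50, 9.56 and 10.70 in control 1, 2 and 3, so control 2 was the lowest array for both. The mean over pluripotency marker probe sets was 9.48, 9.52 and 9.34 in the induced samples and 9.24, 9.74 and 9.13 in the controls, with control 2 the highest array. Over 45037 probe sets without Affymetrix controls, limma called 1, Hprt, at an adjusted p of 0.0337, or 0.00222%, and called 0 with the replicate number as a block, where 1298 had an unadjusted p under 0.05. The Hprt call was also lost without any one of the 6 arrays. Array medians lay between 7.34 and 7.35 on 5 arrays and at 7.40 on induced 2.

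Ltb was higher in each induced sample. Its 1 probe set, 1419135_at, read 8.51, 8.18 and 8.32 in induced 1, 2 and 3, against 7.57, 7.65 and 7.38 in control 1, 2 and 3. The lowest induced array lay above the highest control array. The means were 8.33 ± 0.16 and 7.53 ± 0.13 (SD, n = 3 each) in induced and control samples, a difference of 0.80 on the log2 scale or 1.74-fold. Within replicate numbers 1, 2 and 3 the difference was 0.94, 0.53 and 0.93, so number 2 gave the smallest of the 3. Leaving out 1 array at a time moved the Ltb difference between 0.72 and 0.88. Ltb was picked for its rise in every induced array, so that range gives its rise no added support. Only 12 of the 45037 probe sets, Ltb included, were higher by that much or more (0.0266%). That share describes how far out the chosen gene lies and is no test of it.

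The plot of all members by array places the Ltb values beside those of its partners and pathway genes.

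**Figure D1:**
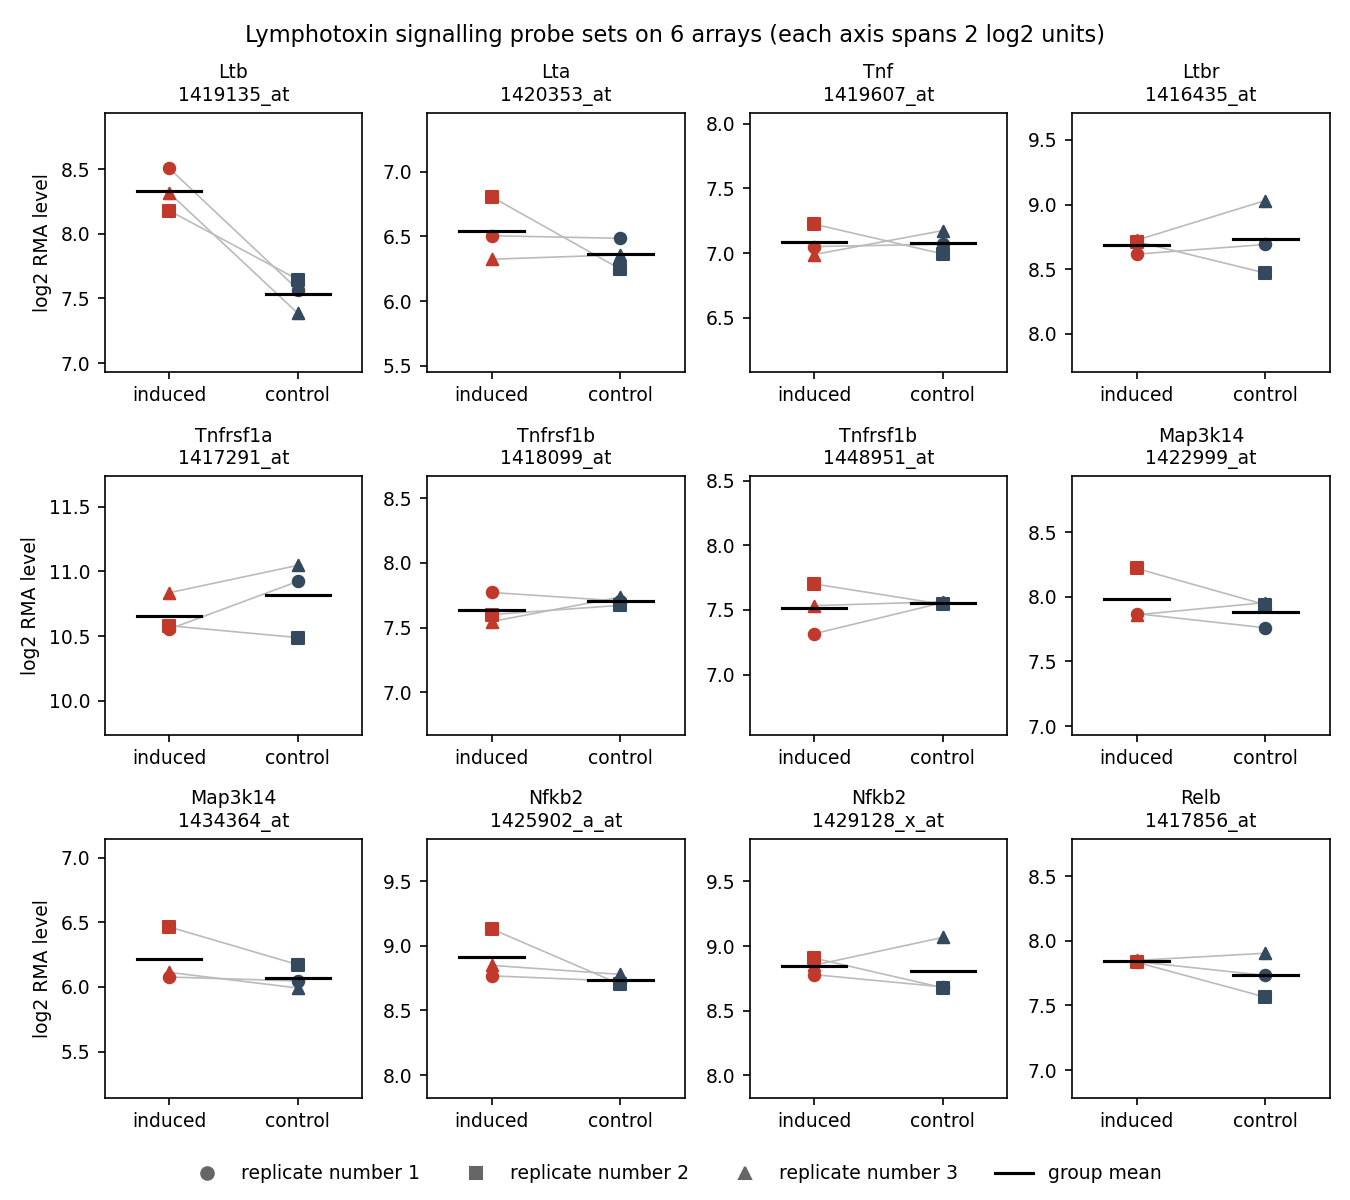
Log2 RMA levels (vertical axes, each spanning 2 log2 units) of the 12 probe sets of lymphotoxin signalling genes in 3 induced samples (left, red) and 3 control samples (right, dark), with grey lines joining equal replicate numbers and black bars for group means. Ltb is the panel in which the groups stand apart, from 8.18 upwards in induced samples and up to 7.65 in controls.

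The other 2 ligands of the family did not separate the groups. Lta, which encodes the lymphotoxin alpha subunit that Ltb anchors at the cell surface, read 6.51, 6.81 and 6.32 in the induced samples and 6.49, 6.25 and 6.36 in the controls. Induced 2 was the highest array and induced 3 lay between controls. The Lta difference was 0.18 ± 0.13 on the log2 scale (SE), with a 95% interval from -0.13 to 0.49, and the value for number 2 alone, 0.56, exceeded those for numbers 1 and 3 (0.020 and -0.034). Without induced 2 the Lta difference was 0.051. Tnf, the founding cytokine of the family, read 7.05, 7.22 and 6.99 in the induced samples and 7.07, 6.99 and 7.17 in the controls. Its groups overlapped fully, and the difference was 0.0091 ± 0.092 (SE), with an interval from -0.21 to 0.22. Over the 6 arrays Lta and Tnf averaged 6.45 and 7.08, below the array medians of 7.34 to 7.40. Background compresses dim probe sets, which limits what the lack of separation shows.

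The 3 receptors showed no separation either. Ltbr, the receptor of the Ltb-containing heterotrimer, read 8.62, 8.71 and 8.72 in the induced samples and 8.69, 8.47 and 9.03 in the controls. The controls spread around the induced values, with an SD of 0.059 in induced samples and 0.28 in controls. The Ltbr difference was -0.046 ± 0.14 (SE), with an interval from -0.37 to 0.28. Tnfrsf1a, the broadly expressed TNF receptor with a death domain, read 10.55, 10.58 and 10.84 in the induced samples and 10.92, 10.49 and 11.05 in the controls. Its lowest array was control 2, as for Ltbr and Kdr. The Tnfrsf1a difference was -0.16 ± 0.15 (SE), with an interval from -0.52 to 0.20. Without control 2 the Tnfrsf1a difference was -0.33 ± 0.12, and without control 3 it was -0.050 ± 0.16.

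Tnfrsf1b, the TNF receptor without a death domain, has 2 probe sets. The probe set 1418099_at read 7.77, 7.60 and 7.55 in the induced samples and 7.71, 7.67 and 7.74 in the controls. The other, 1448951_at, read 7.31, 7.70 and 7.53 in the induced samples and 7.56, 7.54 and 7.56 in the controls. Both carried their spread in the induced samples, and they put the highest and lowest induced array differently. Their differences were -0.065 ± 0.084 and -0.038 ± 0.11 (SE), with intervals from -0.26 to 0.13 and from -0.28 to 0.21.

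NIK, the kinase that starts the non-canonical branch, was read by 2 probe sets of Map3k14. The probe set 1422999_at read 7.87, 8.22 and 7.86 in the induced samples and 7.76, 7.94 and 7.95 in the controls. The other, 1434364_at, read 6.08, 6.46 and 6.11 in the induced samples and 6.05, 6.17 and 5.99 in the controls. In both, induced 2 was the highest of the 6 arrays and the other induced arrays overlapped the controls. The Map3k14 differences were 0.098 ± 0.12 and 0.15 ± 0.12 (SE), with intervals from -0.18 to 0.37 and from -0.13 to 0.42. Without induced 2 they were -0.019 and 0.025.

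The transcription factors at the end of the branch did not separate the groups either. Nfkb2, which encodes p100 and p52, read 8.77, 9.13 and 8.85 in the induced samples and 8.73, 8.70 and 8.78 in the controls on probe set 1425902_a_at. Here induced 2 stood highest, and induced 1 lay below control 3 by a small margin. The difference was 0.18 ± 0.11 (SE), with an interval from -0.066 to 0.43 and limma's unadjusted p at 0.129, the smallest among the tested members. Without induced 2 this Nfkb2 difference was 0.072. On the other Nfkb2 probe set, 1429128_x_at, whose name marks probes that can match further transcripts, the levels were 8.78, 8.91 and 8.85 in the induced samples and 8.68, 8.68 and 9.07 in the controls. There control 3 was the highest array and the difference was 0.036 ± 0.12 (SE), with an interval from -0.24 to 0.31. Relb, the partner of p52, read 7.84, 7.83 and 7.85 in the induced samples and 7.73, 7.56 and 7.90 in the controls. The induced samples of Relb lay within an SD of 0.0072, against 0.17 in the controls, and the difference was 0.11 ± 0.097 (SE), with an interval from -0.12 to 0.33.

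Of the 11 member probe sets tested, 0 passed limma's adjusted threshold, and 0 had an unadjusted p under 0.05, where 1.53% of all probe sets had one. The members' adjusted p was 0.9998 for every one of the 11. Their differences ran from -0.16 to 0.18, with 7 positive and a median of 0.036, beside a median of 0.0029 over all probe sets. In 0 of the 11 did the induced samples lie wholly above the controls and in 0 wholly below, where 2.72% and 3.70% of all probe sets did. The highest bound of any of the 11 intervals was 0.49. The 11 were not compared with Ltb by a test, because Ltb was picked for its rise in every induced array.

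**Figure D2:**
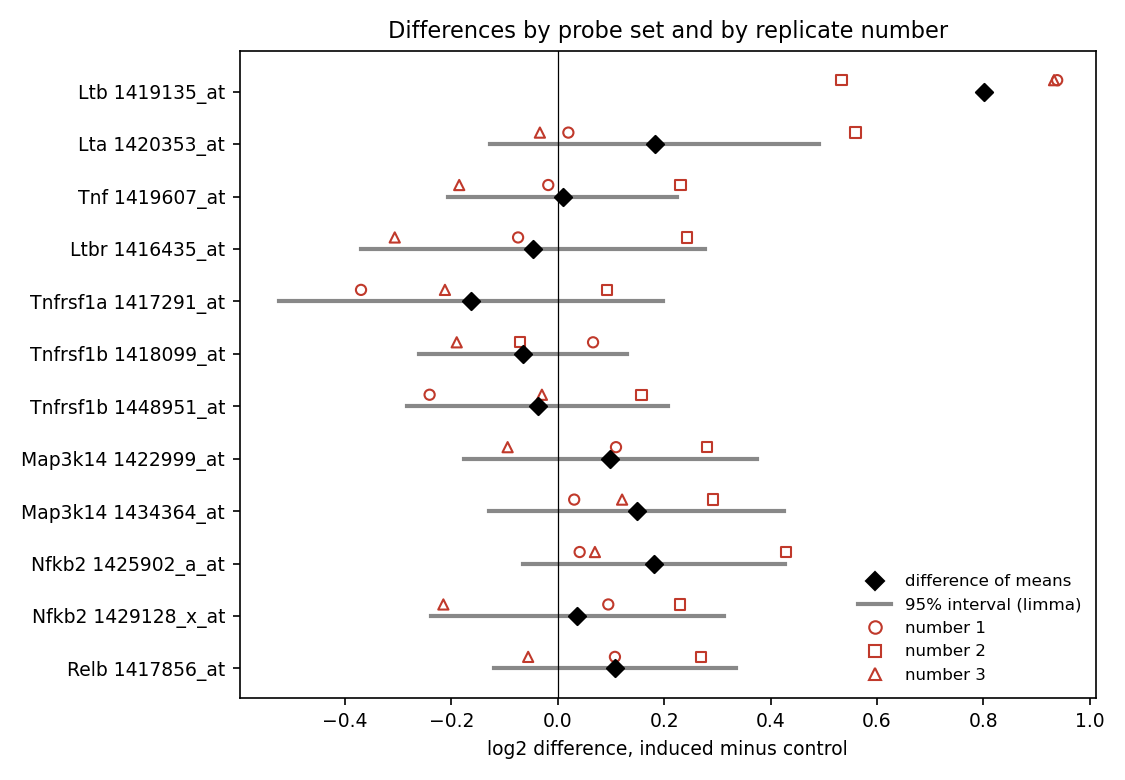
Log2 differences, induced minus control (horizontal axis), for each member probe set (rows), with black diamonds for the difference of means, grey bars for limma's 95% intervals and open red symbols for the difference within each replicate number. Ltb, drawn without an interval because it was chosen for its difference, lies at 0.80, and the other 11 lie between -0.16 and 0.18 with intervals that include 0.

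The sign of the other members depended on the replicate number. Number 2 was higher in the induced sample for 10 of the 11 probe sets, number 1 for 7 and number 3 for 2. Over all probe sets the induced sample was higher in 53.1% for number 2, 47.7% for number 1 and 42.9% for number 3, which places the members' counts in the same order. Induced 2 was the highest of the 6 arrays for 6 of the 11, and for 31.9% of all probe sets. Among members other than Ltb, Map3k14 (1434364_at) and Nfkb2 (1425902_a_at) were higher in 3 of 3 numbers, as were 9.53% of all probe sets. Ltb went the other way, with its lowest induced level in induced 2. The part of induced 2 in the members' values was not tested.

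Genes whose pattern over the 6 arrays was most like that of Ltb were sought among 1926 probe sets with 1 gene symbol and an SD of at least 0.3 over the arrays. The 5 genes with the highest Pearson r were Slc39a4, a zinc importer (0.96), Elk3, an ETS-family factor (0.95), Hprt, a purine salvage enzyme (0.95), Cebpd, a C/EBP transcription factor (0.94), and Camk1d, a calmodulin-dependent kinase (0.94). Each r is over 6 arrays that differ by group, and the same contrast chose Ltb, so these values are descriptions without a test. Slc39a4 read 8.78, 8.66 and 8.67 in the induced samples and 7.69, 8.09 and 7.81 in the controls. Elk3 read 8.65, 8.32 and 8.37 in the induced samples and 7.82, 7.94 and 7.25 in the controls. Cebpd read 9.01, 8.85 and 8.82 in the induced samples and 8.24, 8.56 and 7.96 in the controls. All 3 share with Ltb a control 2 that is the highest control and an induced 1 that is the highest induced array. Control 2 was also the highest array for the pluripotency markers, and its part in these patterns was not tested. Against Ltb, the other members' r ran from -0.52 for Tnfrsf1a to 0.41 for Nfkb2 (1425902_a_at). Their SD over the arrays was at most 0.23, under the 0.3 required in the search, so their r is not on a par with those above.

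**Figure D3:**
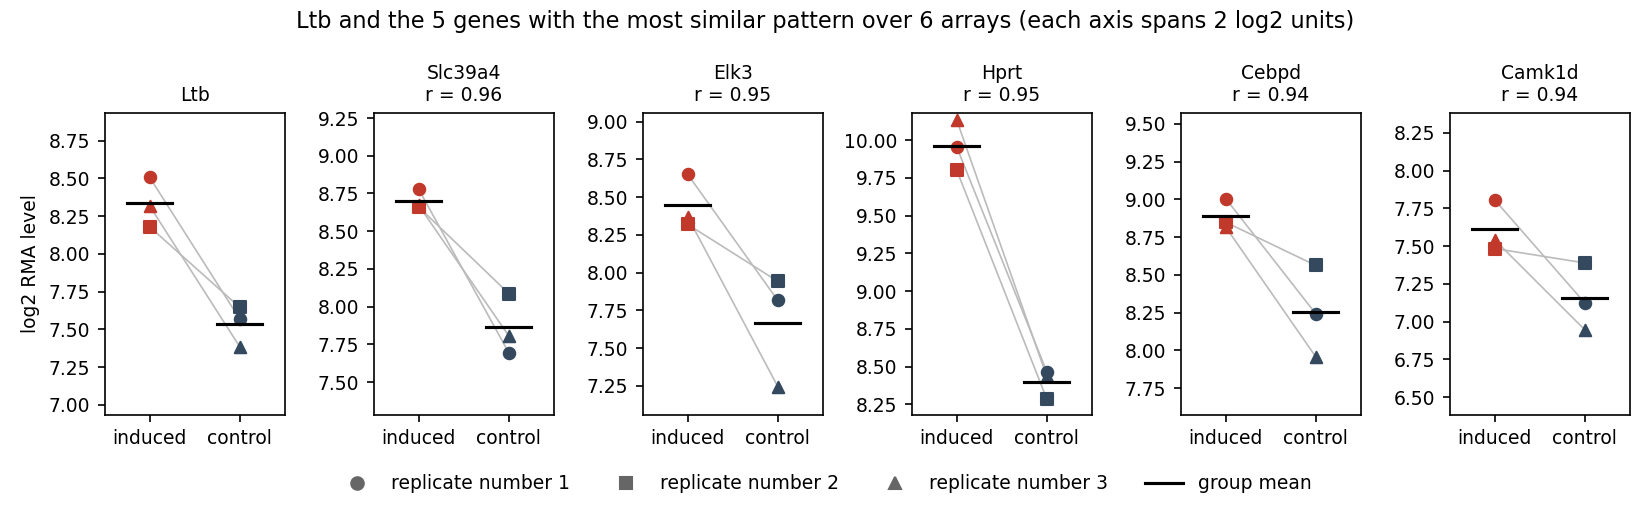
Log2 RMA levels (vertical axes, each spanning 2 log2 units) of Ltb and of the 5 genes with the highest Pearson r to it over 6 arrays, in induced (left, red) and control samples (right, dark), with grey lines joining equal replicate numbers and black bars for group means. The groups do not overlap in any of the 6 panels, and number 2 has the shortest step in 5 of them, the exception being Hprt.

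Beyond the members, 7 lists of related genes were read: ligands, receptors, adaptors, kinases, NF-κB subunits, NF-κB inhibitors and target genes. They named 101 genes, of which 90 were measured by 182 probe sets. None of the 182 passed limma's adjusted threshold, higher or lower, while 6 probe sets of 4 genes had an unadjusted p under 0.05, all of them higher. They are 3.30% of the list probe sets, beside 1.53% of all probe sets in either direction and 0.646% that were higher. The induced samples lay wholly above the controls in 12 probe sets of 10 genes, 6.59% beside 2.72%, and wholly below in 3 probe sets of 2 genes, 1.65% beside 3.70%. The 6 and the 12 both include all 3 probe sets of Cd40, which read the same gene on the same arrays and raise these shares. The lists were also chosen with earlier results of these data known, so these shares are descriptions without a test. The median difference of the 182 was 0.026.

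**Figure D4:**
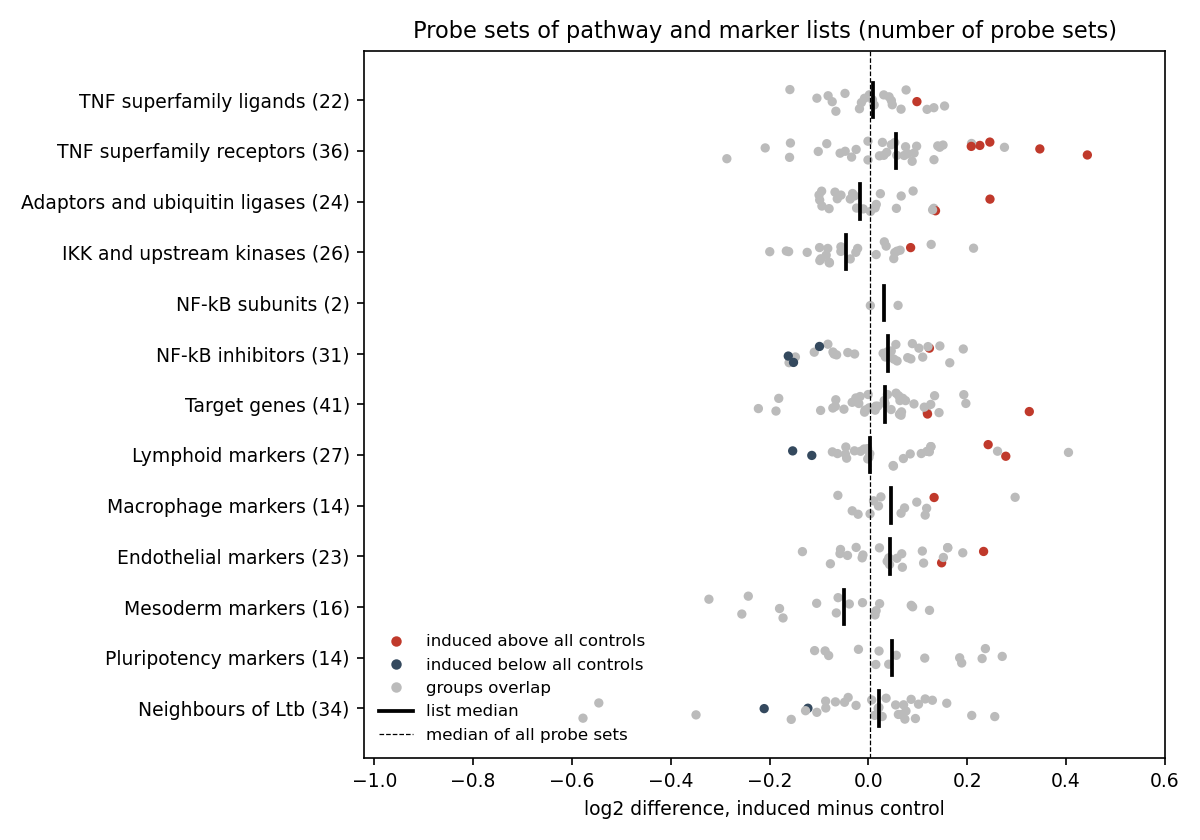
Log2 differences, induced minus control (horizontal axis), of the probe sets of each pathway and marker list (rows, with the number of probe sets), in red where the induced samples lay wholly above the controls, dark where wholly below and grey where the groups overlapped, with black bars for list medians and a dashed line for the median of all probe sets. The receptor list holds 5 of the 12 red points of the 7 pathway lists, and list medians run from -0.050 to 0.056.

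The receptors other than the members held 4 of those 6 probe sets among their 36, with a median difference of 0.056, and 3 of the 4 read Cd40. Cd40, a receptor of antigen-presenting and endothelial cells that also signals through NIK, was read by 3 probe sets, and in each the induced samples lay wholly above the controls. On 1439221_s_at it read 7.93, 7.73 and 8.02 in the induced samples and 7.53, 7.39 and 7.44 in the controls. The Cd40 difference there was 0.44 ± 0.096 (SE), or 1.36-fold, with limma's unadjusted p at 0.0021 and adjusted p at 0.9998. The other 2 Cd40 probe sets, 1449473_s_at and 1460415_a_at, gave 0.25 ± 0.082 and 0.35 ± 0.11, so the 3 agreed in sign, as they did within each replicate number. They were read on the same arrays, so their agreement is not an independent repeat. The names of 1439221_s_at and 1449473_s_at also mark probes that can match further transcripts. Tnfrsf11a, the receptor RANK, had 0.23 ± 0.081 on 1430259_at and 0.031 ± 0.082 on 1419214_at, so its 2 probe sets differed in size. Tnfrsf10b, a death receptor, had -0.21 ± 0.11 on 1422344_s_at and -0.16 ± 0.12 on 1421296_at, with overlapping groups on both.

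Among the ligands other than the members 0 of 22 probe sets had an unadjusted p under 0.05, and the median difference was 0.010. Those with the smallest p were Tnfsf9, the ligand of 4-1BB, at -0.16 ± 0.11 (SE), Eda, ectodysplasin, at 0.098 ± 0.069 on 1451877_at, and Cd40lg, the ligand of CD40, at 0.12 ± 0.093. The other Eda probe sets lay between -0.047 and 0.066. Adaptors and ubiquitin ligases had 1 of 24 under 0.05, Traf1, at 0.25 ± 0.097 on 1423602_at and 0.091 ± 0.092 on 1445452_at. Traf5, which binds several receptors of the family, had 0.14 ± 0.074 on 1448861_at and 0.016 ± 0.089 on 1447682_x_at. Birc3, a ubiquitin ligase that helps to hold NIK down, had 0.13 ± 0.092 on 1421392_a_at and -0.079 ± 0.077 on 1425223_at, so its probe sets differed in sign. Of the kinases 0 of 26 probe sets had an unadjusted p under 0.05, with Ikbkg, the regulatory subunit of the IKK complex, at 0.21 ± 0.096 on 1435646_at, Map3k7 at -0.20 ± 0.14 on 1425795_a_at and Ikbkb at 0.13 ± 0.11 on 1426333_a_at. The other Ikbkg probe sets ran from -0.085 to 0.086 and those of Ikbkb from -0.12 to 0.051, in both signs, while those of Map3k7 ran from -0.17 to -0.025.

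The remaining NF-κB subunits that were measured, Rel and Rela, had differences of 0.060 ± 0.11 and 0.0040 ± 0.076 (SE). The NF-κB inhibitors had 0 of 31 probe sets at an unadjusted p under 0.05 and a median difference of 0.041. The induced samples lay wholly above the controls in 1 of the 31 and wholly below in 3, beside 2.72% and 3.70% of all probe sets. Nfkbia (1420088_at) was the one above, and Otud7b (1457716_at and 1429139_at) and Nfkbib (1421266_s_at) were those below. Nfkbia, the IκBα gene and itself an NF-κB target, was positive on its 5 probe sets, with 0.14 ± 0.081 on 1438157_s_at. Otud7b, a deubiquitinase that restrains the non-canonical branch, had -0.16 ± 0.081 on 1457716_at with the induced samples wholly below the controls, and -0.15, -0.064 and 0.039 on its other probe sets. N4bp1 had -0.16 ± 0.11 on 1418154_at and between -0.11 and -0.042 on the others.

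Among target genes 1 of 41 probe sets had an unadjusted p under 0.05. Icam1, an adhesion molecule of activated endothelium, read 7.11, 7.09 and 7.19 in the induced samples and 6.70, 6.86 and 6.85 in the controls. The groups did not overlap, and the Icam1 difference was 0.33 ± 0.079 (SE), or 1.25-fold, with limma's unadjusted p at 0.0039 and adjusted p at 0.9998. Vcam1, an adhesion molecule often regulated beside it, had differences of -0.025, 0.067 and 0.092 on its 3 probe sets. Sod2, a mitochondrial superoxide dismutase, had -0.22 ± 0.12 on 1454976_at and between -0.067 and 0.046 on its other probe sets, and Plau, a plasminogen activator, had 0.12 ± 0.070 on 1422139_at and 0.066 ± 0.12 on 1422138_at.

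**Figure D5:**
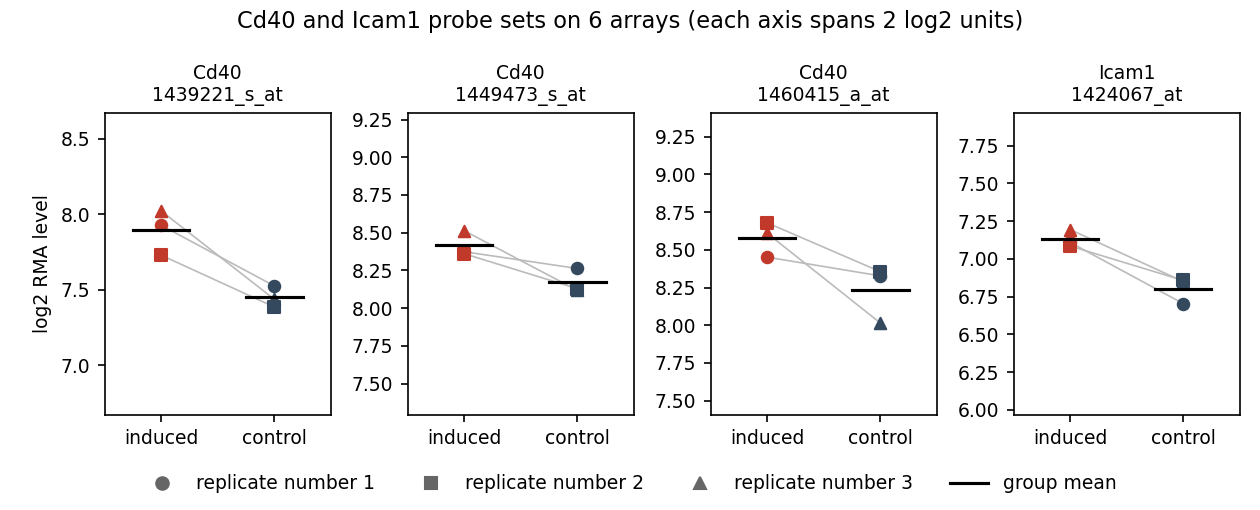
Log2 RMA levels (vertical axes, each spanning 2 log2 units) of the 3 Cd40 probe sets and the Icam1 probe set in induced (left, red) and control samples (right, dark), with grey lines joining equal replicate numbers and black bars for group means. In each panel the 3 induced samples lie above the 3 controls, by 0.25 to 0.44 between the means.

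Since Ltb is best known from lymphocytes, markers of lymphoid cells were read beside it, and macrophage and endothelial markers as well. Lymphoid markers had 0 of 27 probe sets at an unadjusted p under 0.05, a median difference of 0.0029, and 2 probe sets wholly higher and 2 wholly lower in the induced samples, beside 2.72% and 3.70% of all probe sets. The mean level over these probe sets was 6.16 to 6.35 in induced samples and 6.16 to 6.20 in controls, with induced 2 the highest. Cd3g and Cd2, both T cell surface genes, had 0.24 ± 0.13 and 0.28 ± 0.14 (SE). Within numbers 1, 2 and 3 the difference was 0.15, 0.52 and 0.062 for Cd3g and 0.11, 0.61 and 0.12 for Cd2, with induced 2 the highest array for both. Rag1, the recombinase of developing lymphocytes, had 0.0012, Cd79a of B cells -0.0085, and Ptprc, the pan-leukocyte CD45, -0.073 and 0.12 on 2 probe sets. Id2, a regulator that is not confined to lymphoid cells, had 0.26 ± 0.14 on 1422537_a_at, 0.41 ± 0.24 on 1435176_a_at and -0.0015 ± 0.091 on 1453596_at. RMA levels have no true zero, so an absent marker cannot be read as 0 here.

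Macrophage markers had 0 of 14 at an unadjusted p under 0.05, with a median of 0.046, and mean levels of 6.62 to 6.87 in induced samples and 6.64 to 6.68 in controls. Endothelial markers had 1 of 23 under 0.05, Cdh5 at 0.23 ± 0.087 (SE) on 1433956_at and 0.19 ± 0.14 on 1422047_at, with a median of 0.043, and mean levels of 6.99 to 7.08 in induced samples and 6.88 to 7.10 in controls. The part of these cell types in the level of Ltb was not tested. In sorted bulk samples, more cells that express a gene and more RNA per cell cannot be told apart.

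Genes of the MHC class III region around Ltb were read for a difference like that of Ltb. Of 34 probe sets of 19 neighbouring genes 0 had an unadjusted p under 0.05, and the median difference was 0.021. Lst1, the nearest protein-coding neighbour on the side away from Tnf, read 8.09, 8.06 and 7.99 in the induced samples and 7.88, 8.08 and 8.02 in the controls, a difference of 0.055 ± 0.082 (SE). Nfkbil1, beyond Lta, had 0.10 ± 0.11. The neighbours with the smallest p were Clic1 at 0.26 ± 0.12, Hspa1b, whose probes may also read the near-identical Hspa1a, at -0.58 ± 0.29 on 1427127_x_at and Lsm2 at -0.21 ± 0.11.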

How the data were processed

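The deposited log2 values, 1 per probe set and array, are RMA output according to the submitters' processing notes. RMA corrects background, normalizes arrays by quantiles and summarises probes. The quartiles of the deposited values still differed between arrays, with induced 2 furthest from the others. The version of RMA was not given in the sources used here, and scanner files and detection calls were not used here. Probe sets were named through GEO's platform annotation, in which 34958 of 45101 had 1 symbol, 932 several and 9211 none. After 64 Affymetrix control probe sets were set aside, 45037 were fitted with limma (version 3.58.1 in R 4.3.3; lmFit, then eBayes) in a two-sided test without a filter. P-values were adjusted by Benjamini-Hochberg over all 45037, at a threshold of 0.05. Differences are induced minus control, with SE and 95% intervals of the fit, and 3 arrays a group limit the precision. Every member probe set is named, with Etv2, Kdr, up to 3 genes of smallest p per list and the 5 genes most like Ltb by Pearson r. Any other gene named was chosen after its values were seen. The members and lists were chosen with earlier results of these data known. List symbols were matched exactly, and unmatched genes are not analysed here.

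Same-numbered samples deviated together from their group means over all probe sets, at r = 0.25, 0.17 and 0.23 for numbers 1, 2 and 3, all over 0.1. Unlike numbers reached similar values, at 0.18 for induced 1 with control 2 and 0.21 for induced 3 with control 1. Induced 2 with control 3 had 0.066, and the remaining unlike pairs were negative. A positive r was therefore not confined to equal numbers. The numbers were treated as pairs only in an alternative fit with the replicate number as a block, and no label gives a shared culture. Other alternatives were quantile normalization, median centring, a filter on dim probe sets, 1 probe set a gene, array weights and leaving out each array. On simulated data of 45037 probe sets with 200 changed, limma recovered 79% of those changed by 1 log2 unit and 98% of those changed by 2. It also called 6 unchanged probe sets. The simulated noise was independent on each array, whereas the real deviations were correlated between arrays. These shares therefore need not hold for the real arrays, where Etv2 at 3.56 had limma's adjusted p at 0.9998. Promoter windows are the 250 bases before RefSeq starts (GRCm38.p6), searched on both strands.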

Additional observations from a re-analysis of the deposited data

How the results depend on the processing

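No call among the members or the 7 pathway lists was gained or lost under any alternative run, with 0 of the members and 0 of the lists past limma's adjusted threshold each time, and at an unadjusted p under 0.05 between 0 and 1 of the members and between 2 and 10 of the list probe sets. Not every run held all members. The filter on dim probe sets left out Lta, Tnf and Map3k14 (1434364_at). The run with 1 probe set a gene left out Tnfrsf1b (1448951_at), Map3k14 (1434364_at) and Nfkb2 (1425902_a_at). The count over all probe sets was 0 with the replicate block and 0 with arrays centred on their medians, against 1, and it was 0 without any one array. The block changed no other call. Ltb, picked for its rise in these same arrays, lay between 0.78 and 0.84 under the alternatives that keep all arrays, which is no test of it. The sign of Tnf turned to -0.012 after quantile normalization, -0.0086 after centring and -0.033 with array weights. The single member with an unadjusted p under 0.05 was Tnfrsf1a without control 2. Leaving out 1 array gave a range from -0.059 to 0.059 for Tnf, -0.18 to 0.10 for Ltbr, -0.13 to 0.063 for Tnfrsf1b (1448951_at), -0.019 to 0.16 for Map3k14 (1422999_at) and -0.030 to 0.16 for Nfkb2 (1429128_x_at), and, with no change of sign, -0.33 to -0.050 for Tnfrsf1a, -0.13 to -0.019 for Tnfrsf1b (1418099_at), 0.025 to 0.22 for Map3k14 (1434364_at), 0.072 to 0.25 for Nfkb2 (1425902_a_at) and 0.023 to 0.19 for Relb. The cause was not tested. Etv2 ranged from 2.99 to 4.05, with adjusted p from 0.0777, without control 2, to 1. The Cd40 and Icam1 alternatives were added after their values were seen and kept every difference positive, from 0.20 to 0.53 for Cd40 and from 0.28 to 0.37 for Icam1. Dim probe sets are compressed by background, which limits what small differences show.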
